A study of Mus with 2 samples.

Results

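The genes described here are 33 lysosomal protease and hydrolase genes of the mouse, together with the membrane proteins and cofactors that lysosomal digestion depends on. They were taken from a list of gene names, and 33 of the 33 were found among the 32285 features of the deposited matrices with at least 20 UMIs over both sections. By role, the list held 8 cysteine proteases, 2 aspartic proteases, 2 serine proteases, 6 membrane proteins, 9 glycosidases and 6 genes for lipid handling and cofactors. Of the 33 members, 28 had a mean of at least 20 CPM (UMIs per 1000000 UMIs of the section), and Ctse, Ctsf, Gla, Galc and Manba lay below that level.

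The data are Visium spatial expression maps of tumors grown from CT26, a colon carcinoma cell line, under the skin of BALB/c mice aged 6 to 8 weeks. In the rIL7 group, 10 µg of recombinant mouse interleukin 7, a cytokine that lymphocytes depend on, was injected into the peritoneal cavity on days 11 and 13, and the control library carries PBS in its title. Tumors were collected on day 15 and sectioned frozen at 10 µm. There was 1 section per group, so no value below has a replicate error, no test between groups was possible, and a difference between the groups cannot be told apart from a difference between 2 tumors or 2 sections. Intervals are 95% exact intervals, Poisson for a level and binomial for a ratio, and cover counting error only. The range over the 4 quadrants of a section (split at the median array row and column) describes spread within that section, and quadrants are not replicates. The tumors came from a transplanted line in a host with its own immune cells, and each spot can hold several cells of both.

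Lysosomes are acidic organelles in which proteins, glycans and lipids that reach the cell by endocytosis, phagocytosis or autophagy are broken down to their building blocks. Most of their proteases are cathepsins, made as inactive precursors and matured in the acid, and their lipid hydrolases need small activator proteins such as the saposins. Macrophages are rich in lysosomes, and antigen-presenting cells use cathepsins to trim antigens and the invariant chain of MHC class II. Tumor cells also make and secrete several cathepsins.

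After filtering, 2219 spots with 22951678 UMIs remained in control, and 1950 spots with 25729233 UMIs in rIL7. Median depth was 9623 UMIs per spot in control and 1.34 times that in rIL7. The libraries used 1702 spot barcodes in common, which mark the same positions of the capture grid and not the same cells. Of 10 macrophage markers 10 were detected, with summed levels of 2225 CPM in control and 2303 CPM in rIL7, and both CT26 markers (Rpl39l and Baiap2l1) were present. The control section held skeletal muscle transcripts at its core (104 CPM over 4 markers at 12 or more steps from the outline, against 2.13 CPM in rIL7).

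As a group, the lysosomal genes held nearly the same share of the transcripts in both sections. Their summed level was 10679 CPM in control, with quadrants from 9152 to 11727 CPM. It was 10945 CPM in rIL7, with quadrants from 10041 to 11795 CPM, so the quadrant ranges overlapped. The ratio of rIL7 over control was 1.02 (counting interval 1.02 to 1.03). Because each UMI is 1 captured molecule read at its 3′ end, levels of different genes are compared here per molecule, with no scaling by length. Ctsl, the gene of cathepsin L (an endopeptidase at chr13:64361890-64370772 of GRCm38), supplied 27.7% of the members' UMIs in control and 23.7% in rIL7. Without Ctsl the summed ratio was 1.08, and without Psap it was 0.987. A spot sums over its cells, so more cells of a type and more RNA per cell cannot be told apart in any of these values.

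The genes that differed between the sections did so by small factors, and Psap stood out. A gene was counted as higher in one set of spots, and lower in the other, when its CPM there was at least 25% above that in the other set. By this threshold, 2 of the 28 members above 20 CPM were higher in rIL7 (Psap and Scarb2) and 0 were lower. Over the 7613 genes above 20 CPM the shares were 5.53% higher and 5.88% lower. All 4 rIL7 quadrants lay above all 4 control quadrants for 3 of the 28 (Psap, Npc2 and Lamp2), where the share over all genes was 10.0%. For 0 of the 28 did they lie below, where the share over all genes was 11.8%. The median log2 ratio of the 28 members was -0.01, and that of all genes was -0.01. Counting any ratio above 1, 13 of the 28 were above it, where the share over all genes was 48.4%. In interior spots alone, 1 of the 28 (Psap) was higher past the threshold (4.91% over all genes) and 4 were lower (Ctsc, Ctsh, Man2b1 and Neu1; 6.02% over all genes).

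**Figure D1:**
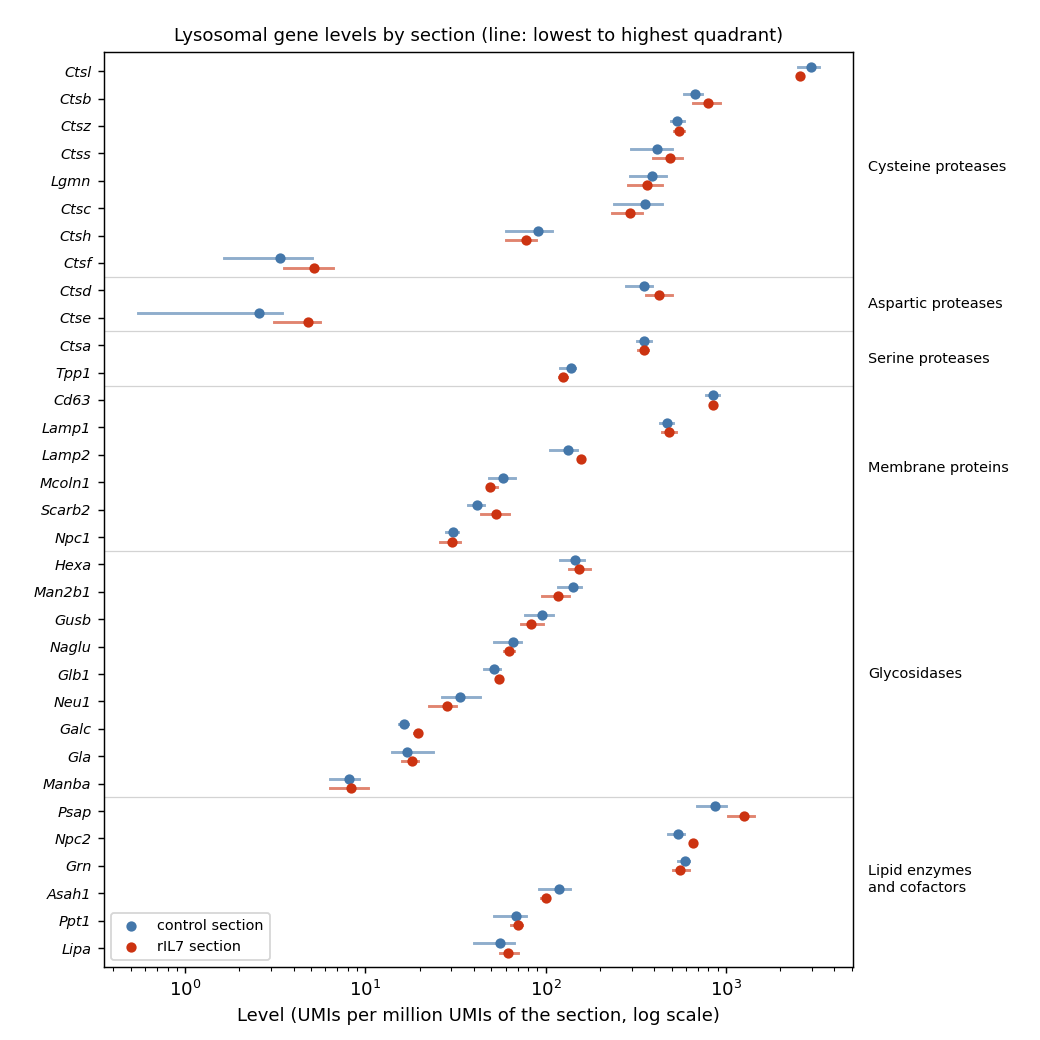
Levels of the 33 lysosomal genes in the control and rIL7 sections, in CPM on a log axis; points are whole sections and lines run from the lowest to the highest of the 4 quadrants. Ctsl sits highest in both sections, and Psap is the most abundant gene whose quadrants separate (691 to 1007 CPM in control, 1027 to 1438 CPM in rIL7).

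Cysteine proteases made up the largest group by level, at 5419 CPM in control and 5164 CPM in rIL7 (ratio 0.953, counting interval 0.946 to 0.960). Ctsl was lower in rIL7, at 2589 CPM (2570 to 2609) against 2958 CPM (2936 to 2981) in control, a ratio of 0.875 (0.866 to 0.885). Its rIL7 quadrants, from 2552 to 2634 CPM, lay inside the control range of 2502 to 3276 CPM. Ctsb encodes cathepsin B, a peptidase that trims dipeptides from the ends of proteins and also cuts within them. Its level was 673 CPM (662 to 683) in control and 796 CPM (785 to 807) in rIL7, giving a ratio of 1.18 (1.16 to 1.21), and the quadrant ranges of 584 to 739 and 660 to 927 CPM overlapped. Ctss encodes cathepsin S, the protease that trims the MHC class II invariant chain. It was at 415 CPM (407 to 423) in control and 487 CPM (478 to 495) in rIL7, giving a ratio of 1.17 (1.14 to 1.21). The quadrants of Ctss also overlapped, from 297 to 501 CPM and from 392 to 571 CPM.

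Within this class, not every member was higher in rIL7. Ctsc encodes cathepsin C, a dipeptidyl peptidase that activates granule serine proteases, and it was lower in rIL7, at 294 CPM (288 to 301) against 356 CPM (349 to 364), a ratio of 0.826 (0.800 to 0.852). Ctsh, an aminopeptidase gene, was also lower, at 77.6 CPM (74.2 to 81.1) against 91.2 CPM (87.4 to 95.2), a ratio of 0.850 (0.799 to 0.904). Quadrant ranges of both genes overlapped between the sections. Lgmn, the asparaginyl endopeptidase legumain that also matures other cathepsins, was at 388 CPM (380 to 396) in control and 365 CPM (358 to 373) in rIL7, giving a ratio of 0.942 (0.915 to 0.970). Ctsz, a carboxypeptidase gene, was at 534 and 550 CPM. Ctsf was scarce, at 3.36 and 5.21 CPM.

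Of the aspartic and serine proteases, Ctsd was on the higher side in rIL7 and the serine proteases were close to level. Ctsd, the main aspartic protease of lysosomes, was at 353 CPM (345 to 361) in control and 424 CPM (416 to 432) in rIL7, giving a ratio of 1.20 (1.17 to 1.24), with overlapping quadrants of 279 to 388 and 358 to 501 CPM. Ctse, an endosomal relative of it, was near the limit of detection at 2.57 and 4.78 CPM, from 59 and 123 UMIs. Ctsa, a carboxypeptidase that also protects β-galactosidase and neuraminidase, was at 353 and 349 CPM. Tpp1, a tripeptidyl peptidase gene, was at 138 and 125 CPM.

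Genes of the lysosomal membrane summed to 1589 CPM in control and 1626 CPM in rIL7. Cd63, a tetraspanin of late endosomes and secreted vesicles, was at 853 CPM (841 to 865) and 851 CPM (840 to 862), a ratio of 0.998 (0.979 to 1.02). Lamp1, an abundant glycoprotein of the limiting membrane, was at 473 CPM (464 to 482) and 485 CPM (477 to 494), a ratio of 1.03 (0.9998 to 1.05). These sections did not differ in Cd63 or Lamp1 beyond their quadrant spread. Lamp2, its relative with a role in autophagy, was at 132 CPM (128 to 137) and 157 CPM (153 to 162), a ratio of 1.19 (1.14 to 1.248). Its quadrants did not overlap, at 106 to 149 CPM in control and 153 to 162 CPM in rIL7. Scarb2, the membrane receptor that carries glucocerebrosidase to lysosomes, was at 41.7 CPM (39.1 to 44.4) and 52.9 CPM (50.2 to 55.8), a ratio of 1.27 (1.17 to 1.38). The quadrants of Scarb2 overlapped, from 37.1 to 45.6 CPM and from 44.0 to 62.4 CPM. Mcoln1, a calcium channel of the lysosomal membrane, was lower in rIL7, at 49.4 against 58.2 CPM (ratio 0.849, 0.785 to 0.917). Npc1, which exports cholesterol, was at 30.8 and 30.4 CPM.

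Glycosidases, which remove sugars from glycoproteins and glycolipids, were mostly low in abundance and summed to 576 CPM in control and 546 CPM in rIL7. The α-mannosidase gene Man2b1 had the lowest ratio of the 28 members, 0.824 (0.784 to 0.866), with levels of 142 CPM (138 to 147) and 117 CPM (113 to 122). Even so, its quadrants overlapped, from 117 to 157 CPM and from 95.3 to 135 CPM. Hexa (a subunit of β-hexosaminidase) was at 145 and 154 CPM, Gusb (β-glucuronidase) at 95.8 and 83.3 CPM, and Naglu (an N-acetylglucosaminidase of heparan sulfate breakdown) at 66.1 and 62.7 CPM. Glb1 (β-galactosidase) was at 51.6 and 55.0 CPM, and Neu1 (a sialidase) at 33.3 and 28.4 CPM. The scarce members were Gla (α-galactosidase) at 17.0 and 18.0 CPM, Galc (galactosylceramidase) at 16.4 and 19.6 CPM and Manba (β-mannosidase) at 8.06 and 8.32 CPM.

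The genes for lipid handling and cofactors summed to 2249 CPM in control and 2706 CPM in rIL7 (ratio 1.20, 1.19 to 1.22), with quadrants that overlapped (1918 to 2489 and 2407 to 2992 CPM). Most of that difference was Psap. Psap (chr10:60277628-60302600) encodes prosaposin, the precursor of the saposins that present sphingolipids to their hydrolases. It was at 868 CPM (856 to 880) in control and 1261 CPM (1247 to 1275) in rIL7, giving a ratio of 1.45 (1.43 to 1.48), and its quadrants did not overlap. Psap thereby went from 8.13% to 11.5% of the members' UMIs. Npc2, a soluble cholesterol carrier, was at 542 CPM (532 to 551) and 655 CPM (645 to 665), a ratio of 1.21 (1.18 to 1.24), with separate quadrants of 479 to 586 and 640 to 683 CPM. Grn encodes progranulin, a precursor of granulins that binds prosaposin, and was at 596 CPM (586 to 606) and 557 CPM (548 to 566), a ratio of 0.935 (0.913 to 0.957) with overlapping quadrants. Asah1 (acid ceramidase) was lower in rIL7, at 100.5 against 119 CPM (ratio 0.845, 0.800 to 0.892). Ppt1, which removes palmitate from proteins, was at 68.4 and 70.2 CPM, and Lipa, the acid lipase, at 55.9 and 62.1 CPM.

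The lysosomal genes were higher along the outline of the rIL7 tumor than inside it, and were nearly level in the control section. Distance was counted in steps of neighboring spots from the outside of the main tissue piece, and spots at 1 or 2 steps were called the edge (401 control and 330 rIL7 spots, against 1806 and 1599 interior spots). In rIL7 the summed members were at 12992 CPM in edge spots and 10562 CPM in interior spots, a ratio of 1.23 (1.22 to 1.24) that ran from 1.19 to 1.27 over the quadrants. The control section had 10940 and 10607 CPM, a ratio of 1.03 (1.02 to 1.04). By the same threshold, 13 of the 28 members were higher at the edge in rIL7 (9.27% over all genes) and 2 of 28 in control (2.44% over all genes). Lower at the edge was 1 of 28 in rIL7 (18.0% over all genes) and 1 of 28 in control (7.54% over all genes). The median log2 ratio of the 28 was 0.28 in rIL7, where that of all genes was -0.07, and -0.00 in control, where that of all genes was -0.06. Whether the edge differs between the groups was not tested, with 1 section of each.

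**Figure D2:**
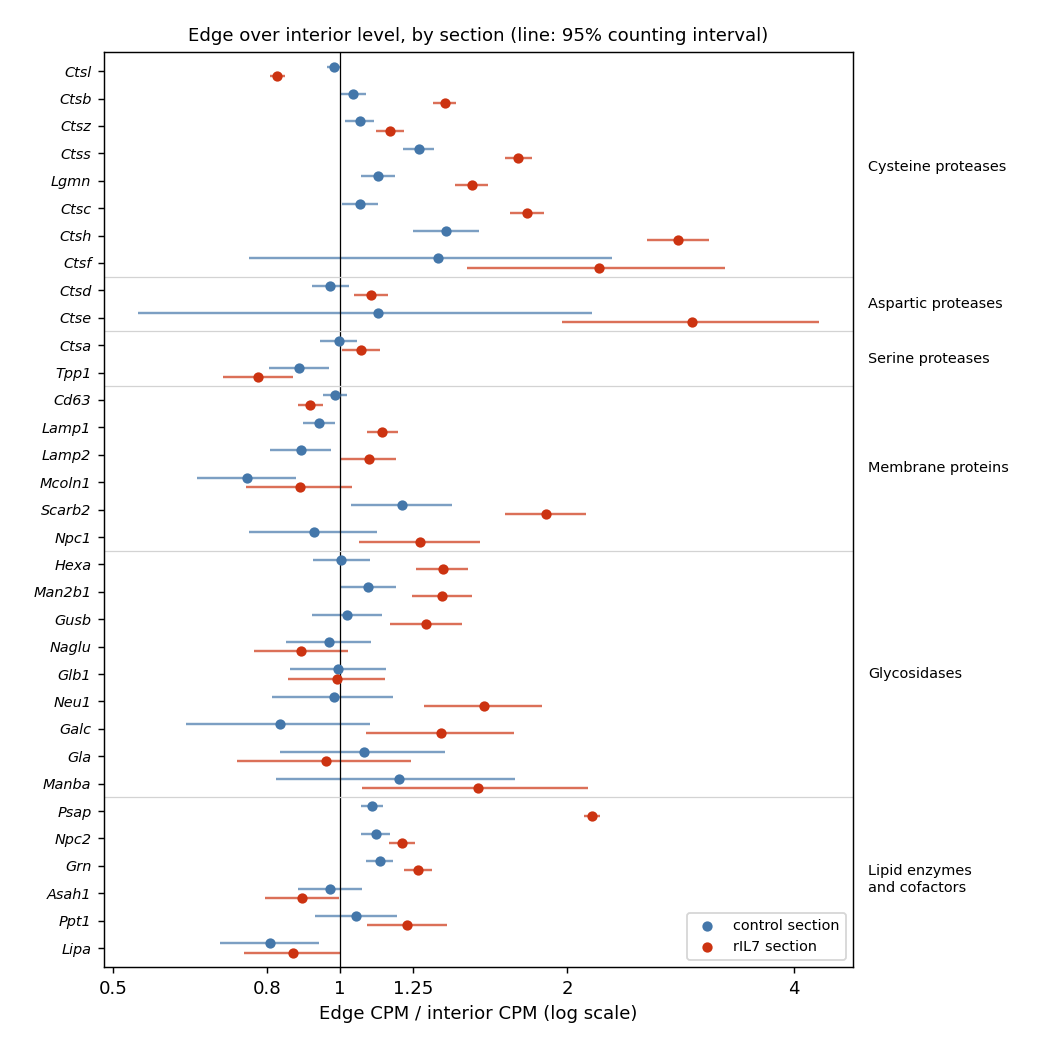
Edge over interior ratio of each lysosomal gene in the control and rIL7 sections (ratio on a log axis), where lines are 95% intervals for counting error. In rIL7, Ctsh (2.81-fold) and Psap (2.16-fold) sit farthest to the edge side among the members above 20 CPM, and Ctsl (0.825) and Tpp1 (0.778) to the interior side, while most control values lie near no difference.

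Psap was the largest part of the rIL7 edge. It was at 2303 CPM in edge spots and 1068 CPM in interior spots, a ratio of 2.16 (2.10 to 2.21) that was between 1.88 and 2.56 in the 4 quadrants. This 1 gene made up 50.8% of the net edge difference of the summed members, to which Ctsl contributed -19.2%, and 40.7% of the summed differences of the 24 members that were higher at the edge. Ctss came next at 13.0% of the net, and Ctsb at 11.6%. In control the same gene was at 936 and 849.9 CPM, a ratio of 1.101 (1.06 to 1.14). From the outline inward, Psap in rIL7 was at 2714 CPM (2639 to 2791) at step 1, 1949 CPM at step 2, 1227 CPM at steps 3 to 4, 1048 CPM at steps 5 to 7, 979 CPM at steps 8 to 11 and 1069 CPM (1046 to 1092) at 12 or more. Over the same bins control went from 932 CPM (892 to 973) to 782 CPM (757 to 807).

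Several cysteine proteases were also highest toward the outline. Ctsh had the highest rIL7 edge ratio of the 28, 2.81 (2.56 to 3.09), with 170 CPM in edge spots and 60.5 CPM in interior spots. Its control ratio, 1.38 (1.2496 to 1.53), was the highest in that section too. Ctsc was at 463 and 262 CPM in rIL7, giving a ratio of 1.77 (1.68 to 1.87), and at 373 and 351 CPM in control, a ratio of 1.06 (1.01 to 1.12). For Ctss the rIL7 levels were 754 and 437 CPM (ratio 1.72, 1.65 to 1.80) and the control levels 501 and 394 CPM (ratio 1.27, 1.21 to 1.33). Scarb2 was at 86.7 and 46.2 CPM in rIL7 (ratio 1.87, 1.65 to 2.12) and 48.3 and 40.03 CPM in control (ratio 1.21, 1.03 to 1.41). In each of the 4 rIL7 quadrants Ctsh, Ctsc, Ctss and Scarb2 were higher at the edge. Lgmn (ratio 1.49, 1.42 to 1.57), Ctsb (1.38, 1.33 to 1.42) and Grn (1.27, 1.22 to 1.32) were also higher at the rIL7 edge in 4 of 4 quadrants. Their control ratios were 1.12 (1.07 to 1.18), 1.04 (0.999 to 1.08) and 1.13 (1.08 to 1.18).

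Other members did not share that gradient. Ctsl ran the other way in rIL7, with 2198 CPM in edge spots and 2665 CPM in interior spots (ratio 0.825, 0.806 to 0.844), and was lower at the edge in 4 of 4 quadrants. In control, Ctsl was at 2910 and 2970 CPM (ratio 0.980, 0.961 to 0.999). Tpp1 was lower at the edge of both sections, by ratios of 0.778 (0.699 to 0.865) in rIL7 and 0.883 (0.804 to 0.967) in control. Lipa showed the same order, at 0.865 (0.745 to 0.999) and 0.807 (0.693 to 0.937), as did Mcoln1, at 0.884 (0.749 to 1.04) and 0.752 (0.645 to 0.874). Cd63 was at 789 and 864 CPM in rIL7, giving a ratio of 0.913 (0.878 to 0.948), and at 0.984 (0.949 to 1.02) in control. The ratio of Naglu in rIL7 was 0.888 (0.768 to 1.02). Ctsd differed little, at 1.099 (1.04 to 1.16) in rIL7 and 0.970 (0.917 to 1.03) in control. At the control edge, Lamp2 was at 0.886 (0.806 to 0.973), Lamp1 at 0.937 (0.892 to 0.983) and Npc1 at 0.923 (0.756 to 1.12), and 15 of the 33 members lay below 1.

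**Figure D3:**
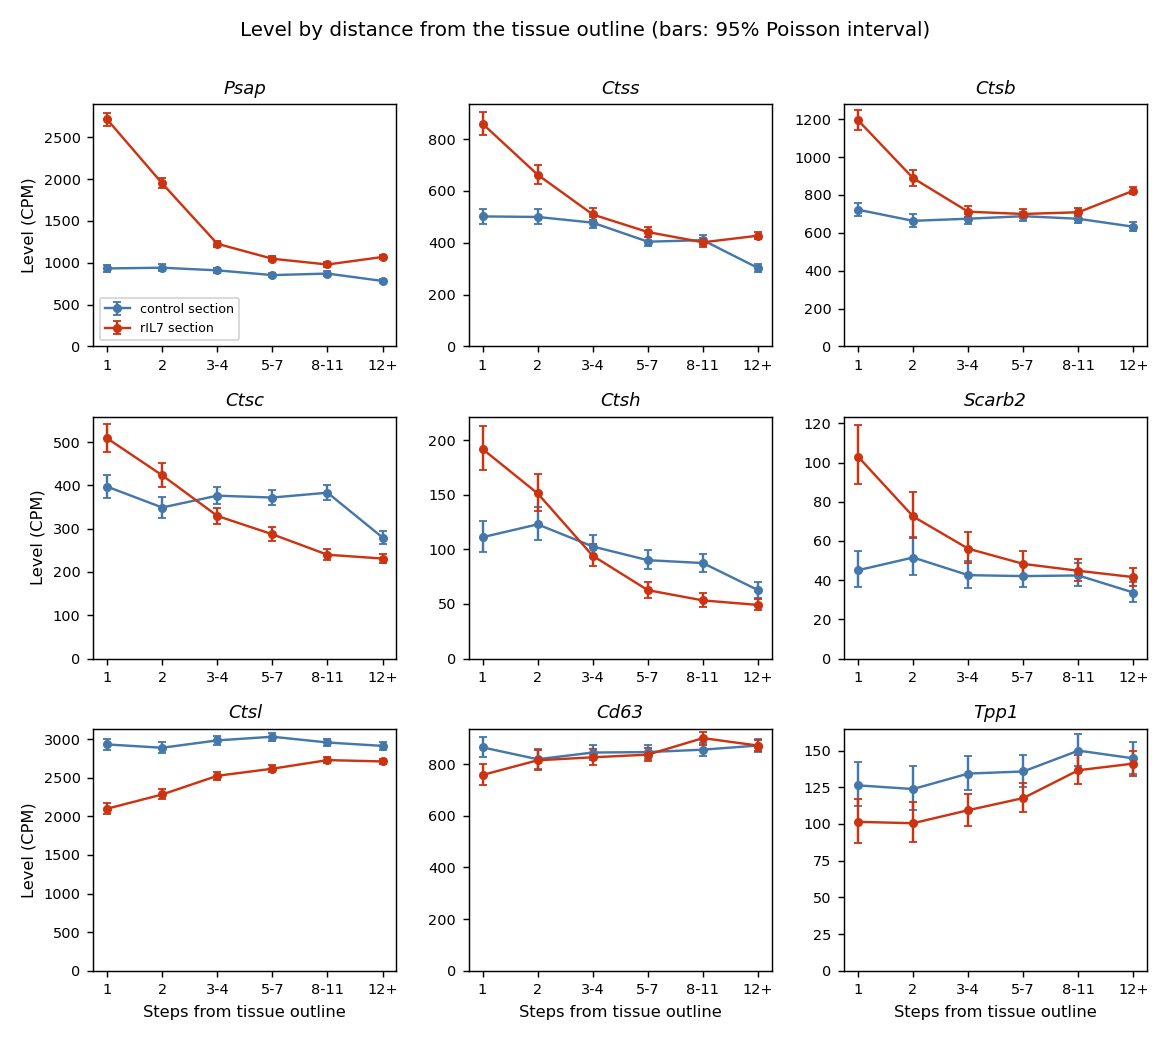
Levels of 9 lysosomal genes by distance from the tissue outline (steps of spots, binned) in the control and rIL7 sections, in CPM with 95% Poisson intervals. Psap in rIL7 goes from 2714 CPM at step 1 to 979 CPM at steps 8 to 11, Ctsl goes from 2099 to 2729 CPM over the same bins, and the control line of Psap runs from 932 to 782 CPM.

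Markers of several cell types moved with the rIL7 edge. Macrophage markers summed to 3628 CPM at that edge and 2056 CPM in interior spots (ratio 1.76, 1.73 to 1.80), against 1.12 (1.09 to 1.14) in control. T cell markers had ratios of 3.62 in rIL7 and 1.15 in control, fibroblast markers 1.74 and 0.972, endothelial markers 2.58 and 1.26, dendritic cell markers 1.83 and 1.05, and the 2 CT26 markers 0.691 and 0.916. B and plasma cell markers had the highest of these ratios, 18.0 (14.2 to 23.0) in rIL7, from 4.21 CPM in interior spots to 75.7 CPM at the edge, against 1.07 (0.610 to 1.79) in control. The fibroblast list was mixed in rIL7, with 4 of its 6 genes higher at the edge and 2 lower. Its ratio ran from 0.979 to 2.46 over the rIL7 quadrants. Median depth was 10901 UMIs per edge spot and 9482 per interior spot in control, and 11166 and 13162 in rIL7. The part of each cell type and of depth in the lysosomal gradient was not tested. Counted per 100 UMIs of the macrophage markers, Psap was at 63.5 UMIs at the rIL7 edge and 51.9 in the interior, and at 38.5 and 39.1 in control. Ctss was nearly level on that scale in rIL7, at 20.8 and 21.3 UMIs, and so was Ctsc, at 12.8 and 12.7 UMIs. Ctsh was higher at the rIL7 edge on that scale, at 4.69 and 2.94 UMIs. Ctsb was lower there, at 28.4 and 36.4 UMIs, as were Lgmn, at 13.9 and 16.4 UMIs, and Ctsl, at 60.6 and 130 UMIs. The summed members were at 358 UMIs at the rIL7 edge and 514 UMIs in the interior, so the macrophage markers differed more between edge and interior than the lysosomal sum did.

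The ratio of rIL7 over control was not the same at the edge and in the interior. At the edge the summed ratio was 1.19 (1.17 to 1.20), and in the interior it was 0.996 (0.990 to 1.002). The cell type markers differed too. Edge and interior ratios were 1.49 and 0.946 for macrophage markers, 7.94 and 2.52 for T cell markers, 1.76 and 0.978 for fibroblast markers and 0.629 and 0.833 for CT26 markers. Keratinocyte markers were at 118 CPM at the control edge and 29.6 CPM at the rIL7 edge, below the 39.1 CPM of the rIL7 interior. Of these 4 markers, 2 had no UMI in at least 1 section. Their edge over interior ratio in control ran from 0.739 to 6.09 over the quadrants. The part of these cell types in the lysosomal ratios was not tested. Psap had a ratio of 2.46 (2.37 to 2.55) at the edge and 1.26 (1.23 to 1.28) in the interior. Ctsc and Ctsh lay on opposite sides of 1, with ratios of 1.24 (1.16 to 1.33) and 1.45 (1.29 to 1.63) at the edge and 0.745 (0.719 to 0.772) and 0.715 (0.664 to 0.770) in the interior. Ctsl was lower in rIL7 at both places, by 0.755 (0.735 to 0.776) and 0.897 (0.887 to 0.908), and Ctsd was higher at both, by 1.33 (1.246 to 1.43) and 1.18 (1.14 to 1.22). At 12 or more steps, Ctsb was 1.302-fold higher in rIL7 (1.247 to 1.36) and Ctss 1.41-fold (1.33 to 1.503), values that include the patch of spots described next.

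Some of the core's Ctsb, Ctsd and Lgmn lay in a single patch of spots deep in the rIL7 tumor. This patch was found after the maps had been seen, as the largest group of touching interior spots past the 95th percentile for the summed share of Ctsb, Ctsc, Ctsh, Ctss, Ctsz and Lgmn. The rIL7 patch held 31 of the 80 spots past that cut, at 11 to 17 steps from the outline, and the next group held 3. Its spots were deep, at a median of 20939 UMIs against 13077 UMIs in the other interior spots. The 6 genes used in choosing the patch are high there by choice, and are given as a description with Lgmn at 3.03, Ctsb at 2.98 and Ctss at 2.09 times the other interior spots. Ctsd, which was not used, was at 1156 CPM in the patch and 393 CPM elsewhere, a ratio of 2.94 (2.73 to 3.17). Psap was at 2395 and 1026 CPM (ratio 2.33, 2.22 to 2.46), Hexa at 258 and 141 CPM (1.83, 1.56 to 2.14), Lipa at 109 and 61.9 CPM (1.76, 1.37 to 2.24) and Npc2 at 1023 and 622 CPM (1.64, 1.52 to 1.78). Gla, a member under 20 CPM, had a ratio of 2.55 (1.68 to 3.73) from 29 UMIs in the patch. Ctsl (1.17, 1.12 to 1.22), Cd63 (1.03, 0.947 to 1.12) and Tpp1 (0.934, 0.738 to 1.17) differed less. Neutrophil markers were at 1009 CPM in the patch and 236 CPM elsewhere and macrophage markers at 3214 and 2020 CPM. Red blood cell markers had a ratio of 6.77 (3.05 to 13.6), from 10 UMIs in the patch. Low in the patch were T cell (ratio 0.504), dendritic cell (0.521), fibroblast (0.573) and CT26 markers (0.719). The part of these cell types in the patch was not tested.

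The largest such patch of the control section was also deep, at a median of 20288 UMIs against 9449 UMIs, but differed in place and markers. It held 20 of 91 spots past the cut, nearer the outline at 3 to 9 steps, with macrophage markers at 2.09 times and neutrophil markers at 0.684 times the other interior spots. Ctsd was 1.21-fold (1.03 to 1.40) and Psap 1.45-fold (1.32 to 1.59) higher in it. Without the patch, the rIL7 core at 12 or more steps held 712 CPM of Ctsb in place of 823 CPM, 399.8 CPM of Ctsd in place of 460 CPM and 302 CPM of Lgmn in place of 355 CPM. Only the rIL7 core lost spots, because the control patch lay nearer the outline. Ctsb, Lgmn and Ctss were used in choosing the patch, so leaving it out lowers their core ratios by construction. Ctsd and Psap were not used in the choice but were high in the patch. Leaving it out of rIL7 alone therefore lowers their ratios too. The core ratio of rIL7 over control without the patch was 1.13 (1.08 to 1.18) for Ctsb in place of 1.302. It was 1.11 (1.05 to 1.18) for Ctsd in place of 1.28 and 1.22 (1.17 to 1.27) for Psap in place of 1.37. These ratios lay below the threshold of 25%. Lgmn went to the other side of 1, at 0.934 (0.876 to 0.997) in place of 1.101, and Ctss was at 1.28 (1.20 to 1.37) in place of 1.41.

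**Figure D4:**
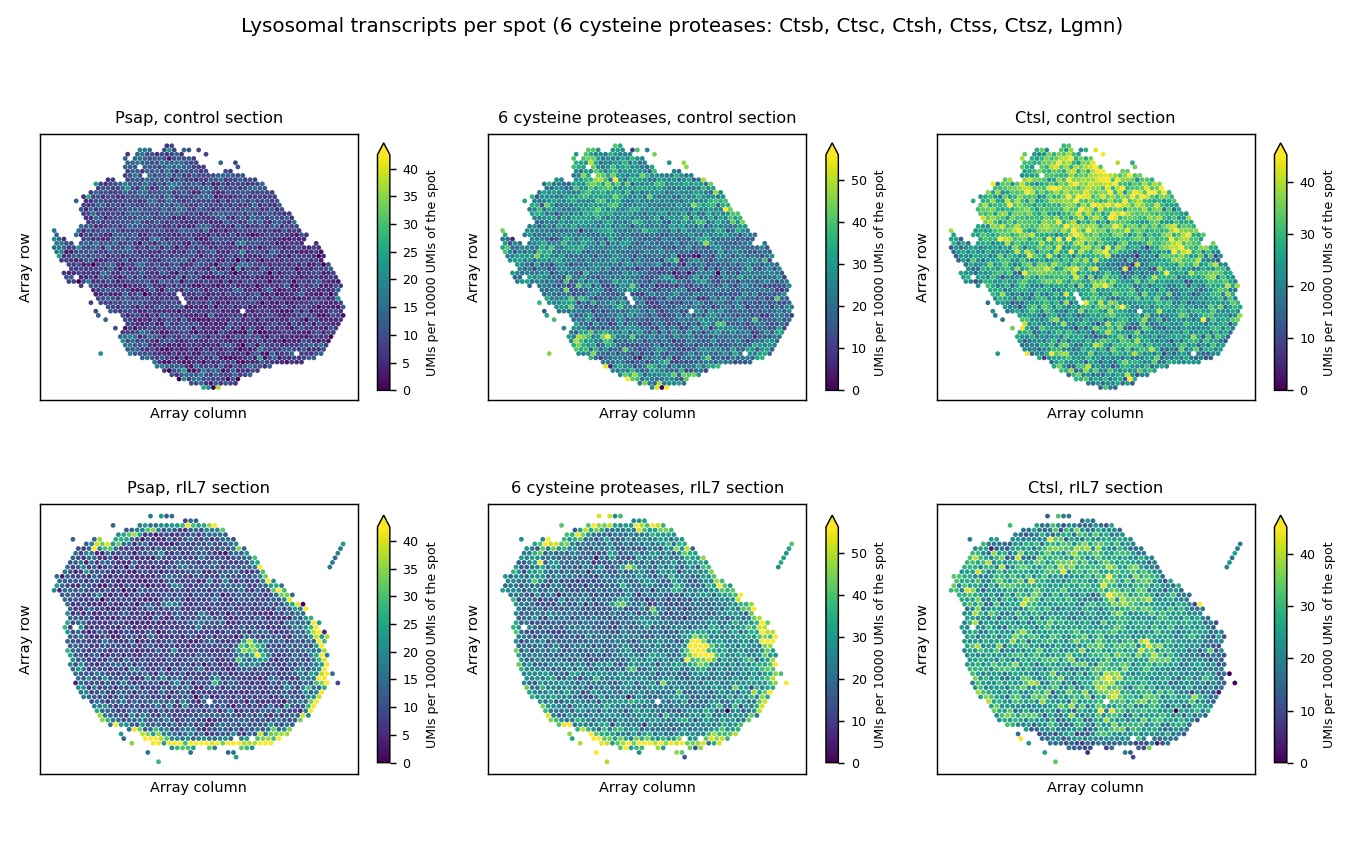
Maps of Psap, the summed 6 cysteine proteases (Ctsb, Ctsc, Ctsh, Ctss, Ctsz and Lgmn) and Ctsl in the control and rIL7 sections, as UMIs per 10000 UMIs of each spot on the capture grid. In rIL7 a rim of high Psap follows the outline, the patch of 31 spots lies inside, and Ctsl is lower along the rim.

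Spots rich in macrophage markers were rich in most lysosomal proteases in both sections. Markers of other cell types also went with the summed members, and their values are given below with the correlations. Spots were ranked by their share of the 10 macrophage markers, and the spots with the highest and the lowest share were compared (554 spots each in control and 487 each in rIL7). The summed members were at 11950 CPM in the rich and 9373 CPM in the poor spots of control (ratio 1.27, 1.26 to 1.29), and at 13141 and 9824 CPM in rIL7 (ratio 1.34, 1.32 to 1.35). Past the threshold on the higher side in the rich spots were 15 of 28 members in control (9.71% over all genes) and 16 of 28 in rIL7 (13.1% over all genes), and 0 were lower in either (11.2% and 14.7% over all genes). The median log2 ratio of the 28 was 0.38 and 0.52, beside -0.05 and -0.02 over all genes. Ctsc had ratios of 2.29 (2.14 to 2.46) and 2.37 (2.22 to 2.54), Ctsh 2.03 (1.78 to 2.33) and 3.05 (2.67 to 3.48), and Ctss 2.16 (2.03 to 2.31) and 2.33 (2.21 to 2.46). Psap was at 1046 and 696 CPM in control (1.504, 1.44 to 1.57) and at 2083 and 941 CPM in rIL7 (2.21, 2.15 to 2.28).

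Position and marker content overlapped in rIL7, where 46.6% of the macrophage-rich spots lay at the edge against 6.78% of the poor ones. In control these shares were 27.4% and 10.3%. With interior spots alone, the Psap ratio was 1.48 (1.41 to 1.55) in control and 1.49 (1.43 to 1.54) in rIL7, and that of Ctss was 2.25 (2.09 to 2.42) and 1.84 (1.74 to 1.96). Ctsl did not follow the macrophage markers in rIL7. Its ratio there was 0.819 (0.801 to 0.838) over all spots and 0.944 (0.922 to 0.966) in the interior, against 1.13 (1.11 to 1.16) and 1.15 (1.12 to 1.18) in control. Cd63 was nearly level, at 1.01 (0.973 to 1.05) in control and 0.936 (0.901 to 0.974) in rIL7.

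**Figure D5:**
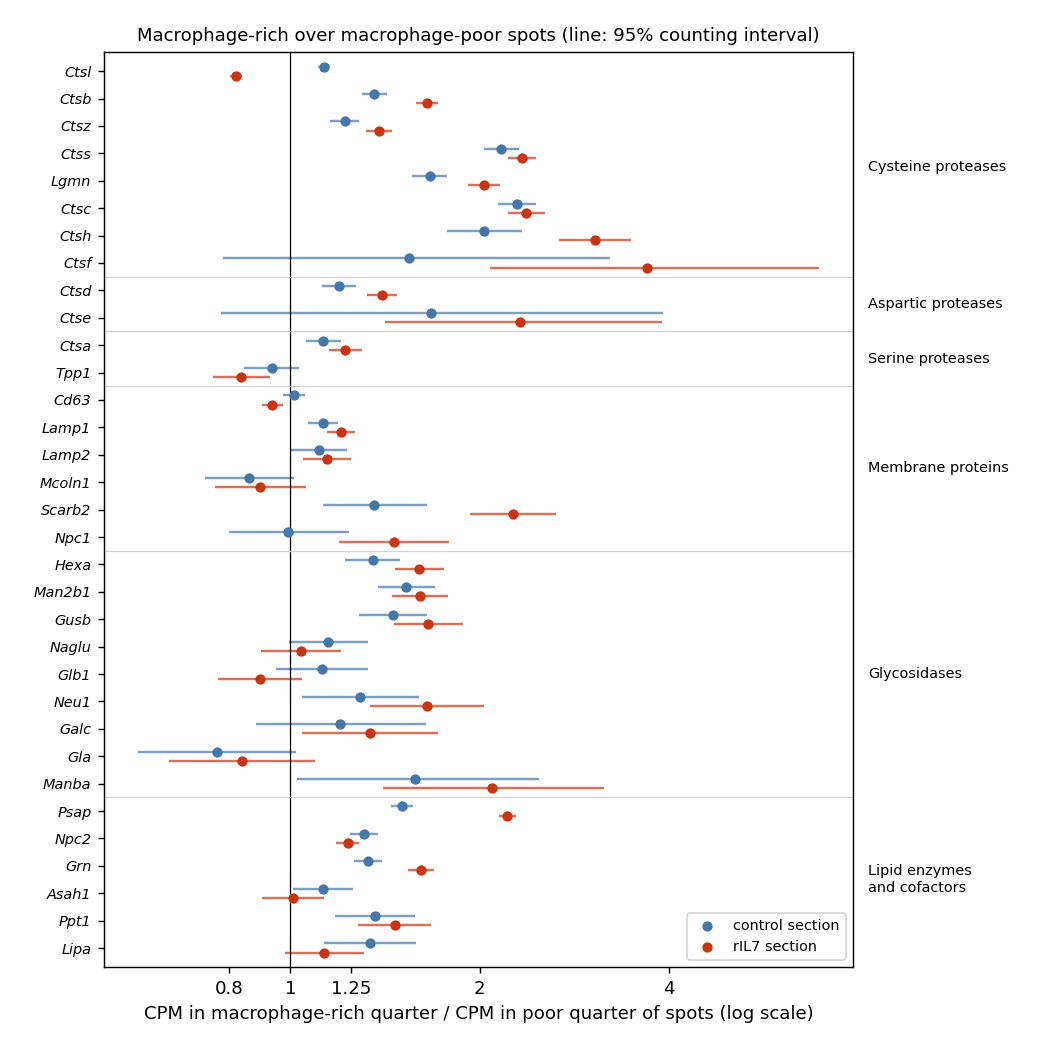
Macrophage-rich over macrophage-poor ratio of each lysosomal gene in the control and rIL7 sections (ratio on a log axis), with lines for 95% intervals for counting error. Ctsc, Ctsh and Ctss are past 2-fold in both sections, and Ctsl lies above no difference in control (1.13) and below it in rIL7 (0.819).

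Spots rich in the 2 CT26 markers showed the reverse in rIL7. The spots richest in them, equally many as above, were lower past the threshold than the poorest spots for 14 of 28 members in rIL7 (8.20% over all genes) and for 0 of 28 in control (4.52% over all genes). Psap was at 962 CPM in the CT26-rich and 1874 CPM in the CT26-poor rIL7 spots, a ratio of 0.513 (0.497 to 0.530). In control the ratio was 0.930 (0.893 to 0.970). Ctsl was higher in the CT26-rich spots of both sections, by 1.14 (1.12 to 1.17) in rIL7 and 1.11 (1.08 to 1.13) in control. This split also overlapped with position, as the CT26 markers had edge over interior ratios of 0.691 in rIL7 and 0.916 in control. It was made over all spots and not in interior spots alone, so CT26 content and position were not separated.

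Correlations between single members and single marker genes across spots were weak. They are given as a description over 2002 control and 1869 rIL7 spots, each thinned to 5900 UMIs. Summed members and summed macrophage markers had a higher Spearman's rho, 0.428 in control and 0.427 in rIL7. With fibroblast markers rho was 0.252 and 0.084, with T cell markers 0.007 and 0.218, and with B and plasma cell markers 0.012 and 0.148. Neutrophil markers gave 0.107 and 0.046, endothelial markers 0.063 and 0.084, dendritic cell markers 0.004 and 0.051, and CT26 markers -0.032 and -0.236. Spots of a section share 1 library and touch each other, so they are not independent, and a weak correlation in counts this sparse is no finding. Csf1r, the receptor of macrophage colony-stimulating factor, had a UMI in 59.6% and 59.4% of these spots. Spearman's rho with Csf1r had a median of 0.02 in control and 0.05 in rIL7 over the 28 members, beside 0.00 and -0.00 over all genes. Past the 95th percentile of all genes were 11 of 28 members in control (5.01% over all genes) and 11 of 28 in rIL7 (5.01% over all genes). The highest values were 0.144 (control) and 0.138 (rIL7) for Ctsc, 0.078 and 0.166 for Ctss, 0.083 and 0.156 for Psap, 0.083 and 0.110 for Grn, and 0.071 and 0.105 for Ctsh. Ctsb reached 0.067 and 0.089. The lowest in rIL7 were Ctsl at -0.142, Lipa at -0.065, Cd63 at -0.047, Tpp1 at -0.043 and Naglu at -0.027, and in control these were at 0.047, 0.006, 0.005, 0.024 and 0.040. Ctsl was thus past the 95th percentile in control and the lowest member in rIL7. In control the lowest were Lamp1 at -0.031, Mcoln1 at -0.027, Npc1 at -0.025, Scarb2 at -0.020 and Glb1 at -0.015.

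With Rpl39l, the ribosomal protein paralog used here as a CT26 marker, the members had medians of -0.01 in control and -0.02 in rIL7, beside -0.00 and 0.00 over all genes. Below the 5th percentile of all genes were 2 of 28 members in control (5.01% over all genes) and 8 of 28 in rIL7 (5.01% over all genes). The 5 lowest in rIL7 were Ctsh at -0.094, Grn at -0.066, Psap at -0.059, Ctsz at -0.054 and Ctss at -0.054, and the 2 past that limit in control were Mcoln1 at -0.049 and Lamp2 at -0.042. Above the 95th percentile were 4 of 28 members in control (5.01% over all genes) and 0 of 28 in rIL7 (5.01% over all genes), so in control more members passed the high limit than the low one. The highest were Ctsd at 0.054, Scarb2 at 0.045, Ctsl at 0.044, Lgmn at 0.040 and Npc1 at 0.033 in control, and Ctsl at 0.036, Lipa at 0.032, Lamp1 at 0.025, Naglu at 0.013 and Lamp2 at 0.010 in rIL7. Rpl39l and Csf1r themselves had a rho of 0.01 in control and -0.04 in rIL7.

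Across spots, some members went together. Of the 378 pairs of the 28 members, 27.5% in control and 29.4% in rIL7 were past the 95th percentile of all gene pairs. Ctss with Psap gave a rho of 0.208 in control and 0.314 in rIL7, and Ctsc with Ctss gave 0.209 and 0.215. Ctsl with Psap was positive in control (0.094) and negative in rIL7 (-0.173). The genes outside the list most like Ctss, by mean rho over both sections, were Cd74 (0.359), Apoe (0.339), H2-Ab1 (0.310), Lyz2 (0.294) and H2-Eb1 (0.290). Those most like Ctsl were Spp1 (0.345), Fn1 (0.193), Mgp (0.183), Tpt1 (0.170) and Il1rl1 (0.168). For Ctsd the closest were Ftl1 (0.120), Apoe (0.116), H2-D1 (0.103), Lyz2 (0.098) and Cst3 (0.097).

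Among the other lysosomal genes, the remaining cathepsins differed most between the sections. Their 4 genes summed to 32.7 CPM in control and 77.2 CPM in rIL7 (ratio 2.36, 2.17 to 2.57), with quadrants of 25.6 to 38.7 and 54.0 to 100.1 CPM that did not overlap. Ctsk, a collagen-degrading protease of osteoclasts and fibroblasts, was at 9.37 CPM in control and 35.9 CPM in rIL7 (ratio 3.83, 3.30 to 4.47). Ctsw, a protease of cytotoxic lymphocytes that lay under 20 CPM and is named after its values were seen, was at 9.28 and 25.4 CPM (ratio 2.73, 2.34 to 3.21). T cell markers went from 35.2 to 121 CPM, and their part in this was not tested. Ctso (1.12, 0.963 to 1.31) and Ctsg (1.30, 0.731 to 2.34) had intervals that included 1. The 22 other hydrolases summed to 1201 and 1222 CPM. In that list, Acp5 (tartrate-resistant acid phosphatase) was at 56.9 and 102 CPM (1.79, 1.68 to 1.92) and Arsb (arylsulfatase B) at 22.7 and 29.4 CPM (1.29, 1.16 to 1.45), while Smpd1 (acid sphingomyelinase) was at 55.1 and 42.2 CPM (0.765, 0.705 to 0.830). Of its 19 genes above 20 CPM, 2 were higher past the threshold and 1 lower, where the shares over all genes were the 5.53% and 5.88% given above. The same shares stand beside the counts of the next lists.

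The 16 genes of the proton pump, which acidifies the lysosome, summed to 2259 and 2187 CPM. Of 15 above 20 CPM, 1 was higher past the threshold (Atp6v1a, 1.28, 1.15 to 1.42) and 1 lower (Atp6v0b, 0.798, 0.774 to 0.823). The other membrane genes had 0 of 9 past the threshold, with Laptm5 at 1.19 (1.14 to 1.24) and Laptm4b at 0.836 (0.778 to 0.899). Sorting genes, which tag and carry enzymes to the lysosome, had 0 of 5 higher and 1 lower (Gnptg, 0.728, 0.643 to 0.824). Among regulators 1 of 4 was higher (Mitf, a transcription factor of the TFEB family, at 17.7 and 25.2 CPM, 1.43, 1.26 to 1.62). The cystatins, inhibitors of cysteine cathepsins, were level, with Cst3 at 0.995 (0.975 to 1.01) and Cstb at 0.951 (0.930 to 0.972). Most of these lists were also higher at the rIL7 edge. Beside 1.23 for the members, the edge over interior ratios there were 1.42 for the other cathepsins, 1.21 for the other membrane genes, 1.21 for sorting genes, 1.17 for cystatins, 1.11 for the other hydrolases, 1.01 for the proton pump and 1.01 for regulators.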

How the data were processed

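Per the labels, the authors aligned and counted the reads with Space Ranger 1.1.0 against mm10 and deposited matrices of UMI counts per gene and spot, with lists of features, barcodes and array positions (pixel coordinates and image scale factors were not used). Spots with under 10% mitochondrial UMIs and over 200 genes were kept (Python 3.11.15, numpy 2.4.6, scipy 1.17.1, pandas 2.3.3, figures by matplotlib 3.10.9). Raw counts were summed over spots and scaled to CPM. Members and lists were chosen with earlier results of these data known. With 1 section per group no test was run, and the scripts were tested on simulated data. Genes above a mean of 20 CPM gave the background. Full intervals were given for the 5 highest and 5 lowest members of each comparison and for Ctsb, Ctsd, Ctsl, Ctss, Lgmn, Psap, Lamp1, Cd63 and Grn, and up to 3 genes at each end of the other lists were eligible. Alternatives were TMM (edgeR 4.0.16) and median-of-ratios (DESeq2 1.42.0) scaling in R 4.3.3, stricter spot filters, other edge widths and thinning depths, equal weight per spot, interior spots alone, and, chosen after seeing the data, leaving out the patch. Gene coordinates are those of RefSeq on GRCm38. Promoter and protein sequences were not analysed here.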

Additional observations from a re-analysis of the deposited data

Results flagged for a closer look

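Lamp1 and Lamp2 had edge to interior differences of opposite sign in the 2 sections. For Lamp1 the log2 ratio of edge over interior was -0.094 in control and 0.19 in rIL7. For Lamp2 it was -0.17 in control and 0.13 in rIL7. In control both genes were lower at the edge in 3 of 4 quadrants, and in rIL7 both were higher in 4 of 4. The control median over all genes was -0.06. Other members, Ctsd and Npc1 among them, also changed sign between the sections. With 1 section per group the difference was not tested.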

How the results depend on the processing

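With 1 section per group, neither the animals nor the slides can be told apart from the treatment, and depth limits the 5 members under 20 CPM and the correlations across spots. No paired analysis was possible because each group has 1 section, and for the same reason no sample could be left out. The log2 ratio of the summed members (0.04 as reported) was 0.026 with totals that left out mitochondrial, ribosomal protein and hemoglobin genes, 0.081 with each spot weighted equally, 0.11 without Ctsl, 0.022 without the patch of touching spots, and -0.0063 in interior spots alone. In interior spots alone, 1 member was higher past the threshold in rIL7 and 4 were lower (4.91% and 6.02% over all genes), where 2 and 0 were reported. Against the genes with at least 20 UMIs, 4 members were higher, where the share over all such genes was 14.3%. The macrophage-rich median in rIL7 (log2 0.55 over 33 members) was 0.33 with spots split at the median and 0.30 in interior spots alone. Hexa was at -0.010 in interior spots alone, and Lgmn at 0.022 with each spot weighted equally, both opposite in sign to the reported values. Lamp1 (-0.012), Ppt1 (-0.002), Manba (-0.025) and Cd63 (0.014) also changed sign in interior spots alone. The cause was not tested. Lgmn, a gene used in choosing the patch, had a log2 ratio of -0.098 at 12 or more steps without the patch. The other 65 group values moved by less than the set margins. Of the 33 single members, 11 moved by more than counting error with each spot weighted equally (Psap to 0.63), 9 in interior spots alone and 2 without the patch (Ctsb and Ctsd), and 0 under the other 5 settings. The planned description of promoter and protein sequences was not run.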
